A study of Mus musculus with 12 samples.

Results

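Among the transcripts measured in B16F10 tumours of mice given the Aurora kinase A inhibitor alisertib, 9 protein-coding genes outside the usual lists of p53 targets stood far above their level in vehicle tumours, whether or not the mice also received navitoclax. These genes were Cpz, Timp4, Wfdc3, Svop, Slc2a9, Pqlc3, Plcd4, Mylk3 and Celf5, which are 9 of the 50600 genes measured. They were chosen by their measured rise against vehicle in both alisertib arms, without a stated threshold, so those 2 comparisons are given here as a description with no test. By size of log2 difference among 16993 genes tested, the 9 genes held ranks between 3 and 83 with alisertib and between 2 and 148 with both drugs. The choice did not use the level of the genes under navitoclax alone or the behaviour of their relatives and neighbours. How they varied between tumours, and their difference between the combination and alisertib, were not set by it. Asking for a large rise in both alisertib arms nevertheless limits that variation and that difference.

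RNA was sequenced from 12 tumour libraries in 4 groups of 3. Tumours grew from 50000 cells of B16F10, a melanoma line of C57Bl/6 mice, placed under the skin of C57Bl/6 mice with the genotype recorded as Wild. The groups received alisertib (25 mg/kg) with navitoclax (100 mg/kg), called the combination below, alisertib alone (25 mg/kg), navitoclax alone (100 mg/kg) or drug vehicle, each by mouth once a day for 11 days. The age of the mice is not given in the sources used here, and nothing says that each library came from its own mouse. The spread behind every p-value is therefore that between libraries, and part or all of it may be technical. Each library is a bulk tumour, in which fewer cells of a type and less RNA per cell cannot be told apart.

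Each library held 26.8 to 36.7 M reads (M for mega, sums of whole reads recovered from the deposited values). A pair of loci rich in ribosomal RNA took 73.7% of reads in combination 3 and 63.3% in vehicle 2, against 13.8 to 35.4% elsewhere, which left 7.08 and 9.86 M other reads in these 2 libraries against 21.9 to 27.6 M. A count of 3 reads was worth a normalized value of 10.9 in combination 3, 7.35 in vehicle 2 and from 2.29 in the rest, a floor that covers counting error only. All 10 melanocyte markers listed were present in the tumours, with sums of 573100 to 916700 per library. Markers of macrophages summed to 7572 to 15650 in combination, 5293 to 12680 in alisertib, 3357 to 7454 in navitoclax and 1477 to 3406 in vehicle libraries. Those sums did not overlap between either alisertib arm and vehicle, and their part in the levels of the 9 genes was not tested.

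Aurora kinase A ripens centrosomes and builds the mitotic spindle, and cells in which it is inhibited can divide with errors, stop in a p53-dependent arrest or enter senescence. Navitoclax blocks BCL-xL, BCL-2 and BCL-w, which hold back cell death. The 9 genes are not usually listed together as a pathway. Their products are secreted proteins that act on other proteins outside the cell (Cpz, Timp4, Wfdc3), membrane transporters or relatives of transporters (Svop, Slc2a9, Pqlc3), signalling enzymes (Plcd4, Mylk3) and an RNA-binding protein (Celf5). Several are known from differentiated tissues such as brain, heart, kidney and sperm rather than from melanocytes.

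The genes lie apart, on chromosomes 1, 2, 5, 6, 8, 10 and 12, with Cpz, Slc2a9 and Svop all on chromosome 5 (positions below are GRCm38, counted from 1). Promoter windows of 300 bases, from 250 before to 50 after a RefSeq transcription start (GRCm38.p6), were at hand for 8 of the 9 genes, in 14 windows, with Svop named only. The full p53 response element (paired decamers with no spacer, both strands searched) was in none of them with 0, 1 or 2 mismatches, where 0.00913%, 0.0883% and 0.797% of all 32851 RefSeq windows held it. A lone p53 decamer, which is also a part of the full element, was in windows of 3 genes, Cpz, Slc2a9 and Celf5, against 8.36% of all windows and 9.55% of the 27025 genes with a window. These 3 windows are printed because they hold the decamer, which stands in capitals; TGACTCA in Slc2a9, the AP-1 motif, is in capitals too.
Cpz, chr5:35525577-35525876, minus strand: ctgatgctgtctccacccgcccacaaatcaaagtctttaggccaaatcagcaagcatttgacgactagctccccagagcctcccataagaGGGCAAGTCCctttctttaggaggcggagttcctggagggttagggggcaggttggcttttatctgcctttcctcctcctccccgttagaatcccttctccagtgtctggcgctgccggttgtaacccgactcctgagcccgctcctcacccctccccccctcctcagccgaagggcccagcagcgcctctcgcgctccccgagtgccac
Slc2a9, chr5:38483336-38483635, minus strand: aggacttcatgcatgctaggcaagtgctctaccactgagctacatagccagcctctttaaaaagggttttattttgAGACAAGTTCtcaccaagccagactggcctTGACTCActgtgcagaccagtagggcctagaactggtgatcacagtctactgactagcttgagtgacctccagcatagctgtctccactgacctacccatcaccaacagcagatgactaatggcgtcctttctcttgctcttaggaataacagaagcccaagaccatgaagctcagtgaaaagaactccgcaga
Celf5, chr10:81482650-81482949, minus strand: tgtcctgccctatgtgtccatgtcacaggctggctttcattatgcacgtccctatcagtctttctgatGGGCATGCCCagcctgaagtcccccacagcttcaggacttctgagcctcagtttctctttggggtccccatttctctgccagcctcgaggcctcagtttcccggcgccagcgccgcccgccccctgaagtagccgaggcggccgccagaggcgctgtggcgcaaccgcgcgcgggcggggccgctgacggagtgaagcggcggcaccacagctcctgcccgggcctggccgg
The decamer read GGGCAAGTCC in Cpz, AGACAAGTTC in Slc2a9 and GGGCATGCCC in Celf5, with its first base at -160, -174 and -182 from the RefSeq start. The Slc2a9 window belongs to a RefSeq start that lies 19758 bases from the outermost GENCODE start of the gene, so the window is not at that outermost start. The AP-1 motif, searched as TGANTCA with any base at N, was in windows of 2 of the 8 genes. It read TGACTCA in Slc2a9 and TGAATCA at an alternative start of Celf5. It was in 7.81% of all windows or 8.97% of all genes. The CHR motif TTTGAA was in 2 genes (Mylk3 and another alternative start of Celf5), against 17.9% of windows or 20.2% of genes. The E-box CACGTG was in none, against 7.15% of windows or 8.09% of genes. Celf5 alone has 5 of the 14 windows, which gives it more room for a match. A match describes the letters only, and windows without one say nothing about a factor's binding elsewhere. The windows also differed in base composition: Celf5 had 66.3% G and C with 23 CpG pairs, Cpz 60.3% with 13 and Slc2a9 48.3% with 2, against a median of 52.7% and 7 over all windows.

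Of the secreted proteins, carboxypeptidase Z removes basic residues from the ends of proteins and carries a frizzled-like domain that binds Wnt proteins. Cpz (ENSMUSG00000036596.6, chr5:35502218-35525698, minus strand) stood at normalized counts of 400.3, 383 and 568 in the combination libraries and 389.8, 524 and 312 in the alisertib libraries, against 29.0, 39.2 and 61.8 in vehicle libraries. The lowest of the 6 libraries with alisertib was thus far above the highest vehicle library. The difference on the log2(value + 2) scale was 3.36 ± 0.31 for the combination and 3.21 ± 0.31 for alisertib (estimate ± standard error from the limma fit, 3 libraries a group). That scale understates the change of genes with few reads.

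TIMP-4 blocks matrix metalloproteinases, the enzymes that cut extracellular matrix, and is best known from heart, brain and fat. Timp4 (ENSMUSG00000030317.8, chr6:115241892-115252205, minus strand) had values of 417, 55.3 and 297 with the combination and 420.4, 211 and 89.8 with alisertib, against 37.0, 51.5 and 45.9 with vehicle. It was the most uneven of the 9 genes within the alisertib arms: combination 2 lay only just above the highest vehicle library, and the alisertib libraries spanned 4.68-fold. The log2 difference was 2.06 ± 0.73 for the combination and 2.12 ± 0.73 for alisertib. That of the combination was 1.497 without combination 1 and 2.93 without combination 2. Adipocyte markers (7 listed, 6 reaching the filter) summed to 76.7 to 746.8 with the combination, 66.4 to 1171 with alisertib and 310.7 to 1149 with vehicle. Timp4 was lowest in the combination library with the highest of these sums (combination 2) and in the alisertib library with the lowest (alisertib 3). The part of fat tissue in the Timp4 values was not tested.

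Wfdc3 encodes a small secreted protein with WAP domains, of a family that holds protease inhibitors and antimicrobial proteins. Wfdc3 (ENSMUSG00000076434.9, chr2:164731180-164745931, minus strand) had values of 259.8, 109.85 and 104.9 with the combination and 148, 139.85 and 74.9 with alisertib, against 12.99, 2.45 and 52.96 with vehicle. The groups did not overlap, but vehicle 3 came close to alisertib 3, and vehicle 2 rested on 1 read. On the log2 scale the difference was 3.25 ± 0.74 for the combination and 2.93 ± 0.74 for alisertib. Without vehicle 2 these were 2.35 (combination) and 2.04 (alisertib), and without vehicle 3 they were 4.16 (combination) and 3.85 (alisertib), so the size of the difference depended on which vehicle library was kept.

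Svop, the first of the membrane proteins, encodes a relative of the synaptic vesicle proteins SV2 and of organic ion transporters. Svop (ENSMUSG00000042078.14, chr5:114026910-114091570, minus strand) had values of 824, 656 and 1755 with the combination and 569, 520.4 and 669 with alisertib, against 50.9, 100.5 and 48.5 with vehicle. Combination 3, one of the libraries rich in ribosomal RNA, was far above every other library, and vehicle 2, the other one, was the highest vehicle library. Its log2 difference was 3.92 ± 0.37 for the combination and 3.17 ± 0.37 for alisertib, and with those 2 libraries left out it was 3.83 for the combination and 3.50 for alisertib.

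SLC2A9 (GLUT9) carries urate across membranes of kidney and liver cells, and the human gene has been reported as induced by p53 in human cells. Slc2a9 (ENSMUSG00000005107.13, chr5:38349273-38503143, minus strand) had values of 551, 480.3 and 546 with the combination and 562, 484 and 482 with alisertib, against 117, 80.9 and 133 with vehicle. The 6 libraries with alisertib lay within a narrow band, well above all vehicle libraries. On the log2 scale the difference was 2.26 ± 0.20 for the combination and 2.21 ± 0.20 for alisertib, with the smallest standard error of the 9 genes.

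Pqlc3 encodes a membrane protein with PQ-loop repeats, a motif shared with lysosomal amino acid carriers. Pqlc3 (ENSMUSG00000045679.13, chr12:16988648-17000408, minus strand) had values of 619, 572 and 391 with the combination and 546, 606 and 487 with alisertib, against 97.9, 58.8 and 169 with vehicle. Combination 3 was the lowest of the alisertib-treated libraries here, in contrast to Svop, and still lay above the highest vehicle library. The log2 difference was 2.36 ± 0.33 for the combination and 2.43 ± 0.33 for alisertib.

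Phospholipase C delta 4 cleaves the membrane lipid PIP2 into second messengers and is needed for the acrosome reaction of mouse sperm. Plcd4 (ENSMUSG00000026173.15, chr1:74542888-74567794, plus strand) had values of 289, 176 and 232 with the combination and 259, 197 and 122 with alisertib, against 13.985, 9.80 and 17.7 with vehicle. The vehicle values rested on 14, 4 and 20 reads, and all lay far below the lowest alisertib library. Its log2 difference was 3.89 ± 0.74 for the combination and 3.59 ± 0.74 for alisertib, and that of alisertib was the largest of the 9 genes in its arm.

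Mylk3 encodes the cardiac myosin light chain kinase, which phosphorylates the regulatory light chain of heart muscle myosin. Mylk3 (ENSMUSG00000031698.14, chr8:85324303-85386345, minus strand) had values of 366, 219.7 and 583 with the combination and 289, 325 and 209 with alisertib, against 63.9, 83.3 and 34.4 with vehicle. Combination 3 was again the highest library and vehicle 2 the highest of its group, as for Svop. Its log2 difference was 2.62 ± 0.52 for the combination and 2.20 ± 0.52 for alisertib. Of 7 cardiac muscle markers 3 reached the filter, with sums of 97.1 to 159.2 in combination, 97.0 to 156.7 in alisertib, 64.8 to 603.7 in navitoclax and 87.4 to 101.9 in vehicle libraries. The defining heart genes Myh6, Myl7, Nppa and Ryr2 did not exceed 1.87 in any library. Actn2 of the same list, which skeletal muscle also expresses, was higher without overlap in both arms, at 30.7 to 86.8 in combination and 27.2 to 47.7 in alisertib libraries, against 5.30 to 19.6 in vehicle libraries, and its highest value, 526.8, was in navitoclax 1. Tnni3 of that list went the other way with alisertib, at 10.7 to 15.3 against 19.6 to 27.0 in vehicle libraries. With the combination Tnni3 overlapped vehicle, and Tnnt2 overlapped vehicle in both arms. The part of muscle cells in the Mylk3 values was not tested.

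CELF5 belongs to the CELF proteins, which bind RNA and steer splicing, and is known from neurons. Celf5 (ENSMUSG00000034818.16, chr10:81459227-81482709, minus strand) had values of 460.3, 539.9 and 543 with the combination and 516, 455 and 464 with alisertib, against 68.9, 46.6 and 127 with vehicle. The alisertib-treated libraries differed little among themselves, while the vehicle libraries spanned 2.73-fold. The log2 difference was 2.75 ± 0.29 for the combination and 2.65 ± 0.29 for alisertib. Of 6 neuron and glia markers reported here, 2 reached the filter, and the 6 summed to 2134 to 2559 in combination, 2397 to 2431 in alisertib, 1247 to 1725 in navitoclax and 1088 to 2175 in vehicle libraries. The alisertib sums lay above all vehicle sums, and the combination sums overlapped them narrowly. Most of the sum was Tubb3. The neuronal markers Syt1, Snap25 and Rbfox3 were at or near 0: Syt1 was at 0 in all 12 libraries, Snap25 reached 3.62 and Rbfox3 8.32. The part of neural cells in the levels of Celf5 and Svop was not tested.

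**Figure D1:**
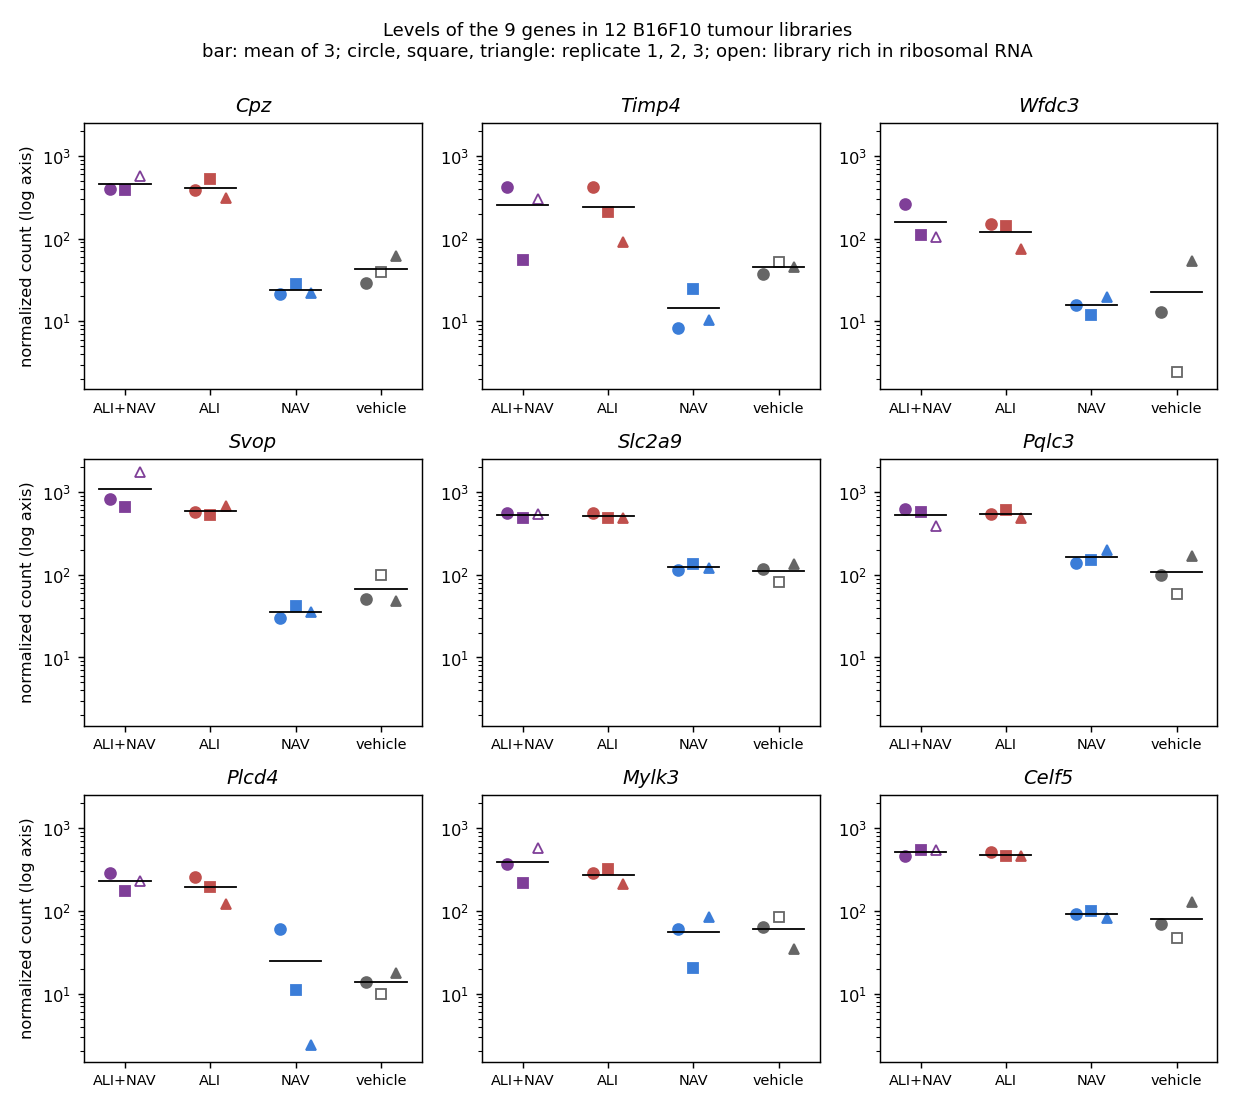
Normalized count (log axis) of each of the 9 genes in every library, with the combination (ALI+NAV), alisertib (ALI), navitoclax (NAV) and vehicle from left to right. Bars are means of 3 libraries, and circles, squares and triangles are replicates 1, 2 and 3, with open symbols for combination 3 and vehicle 2. For all 9 genes the 6 libraries with alisertib lie above the vehicle and the navitoclax libraries; Celf5 and Slc2a9 cluster tightly, and Timp4 spreads widely.

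Because the genes were chosen for it, all 9 were higher than vehicle without overlap in both arms, where 9.73% of all genes tested were higher without overlap with the combination and 10.7% with alisertib. Nothing is read from that count. The members' log2 differences had a median of 2.75 with the combination and 2.65 with alisertib, beside medians of -0.0129 and 0.00998 over all genes tested. With combination 3 and vehicle 2 both left out the median was 2.54 with the combination and 2.33 with alisertib. The ratios of mean values lay between 4.77 and 16.8 with the combination and between 4.52 and 13.9 with alisertib. All 9 genes passed the filter on low values (at least 10 in at least 3 libraries). Each also reached 10 in at least 3 of the 6 libraries without alisertib: in 4 for Plcd4, in 5 for Timp4 and Wfdc3 and in 6 for the other genes.

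Per kilobase of exon, Cpz and Svop were the most abundant of the 9 genes in tumours given alisertib, and Plcd4 the least. The mean normalized count per kilobase with the combination was 236.6 ± 130 for Svop, 200.7 ± 45.5 for Cpz and 33.0 ± 8.03 for Plcd4 (SD, n = 3). With alisertib it was 129 ± 16.7 for Svop, 182 ± 47.9 for Cpz and 27.3 ± 9.75 for Plcd4. Between them the order was, with alisertib, Pqlc3 and Slc2a9 (the second at 100.2 ± 8.92), Celf5 (71.8 ± 4.89), Mylk3 (64.0 ± 13.9), Wfdc3 (47.8 ± 15.9) and Timp4 (40.8 ± 28.4). Pqlc3 and Slc2a9 overlapped within their SDs, as did Celf5 and Mylk3, Mylk3 and Wfdc3, Wfdc3 and Timp4, and Timp4 and Plcd4. In vehicle tumours the top of that order was held by Slc2a9 (21.7 ± 5.28), Pqlc3 (20.1 ± 10.3) and Cpz (19.3 ± 7.48), which overlapped, and Plcd4 was lowest (1.96 ± 0.558).

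Within a group the genes fell into steady and uneven ones. With alisertib, the coefficient of variation over 3 libraries was 6.81% for Celf5, 8.90% for Slc2a9, 10.9% for Pqlc3 and 13.0% for Svop. It was 35.7% for Plcd4, 33.2% for Wfdc3 and 69.6% for Timp4, with Cpz (26.3%) and Mylk3 (21.7%) between. With the combination, Slc2a9 (7.53%) and Celf5 (9.10%) were again the steadiest and Timp4 (71.8%) the most uneven. Some libraries were often at the same end: alisertib 3 was the lowest of its group for 7 of the 9 genes, combination 2 for 6 and vehicle 2 for 5, and vehicle 3 was the highest of its group for 6. Of the libraries rich in ribosomal RNA, combination 3 was the highest of its group for 4 genes and the lowest for 2, and vehicle 2 the highest for 3 and the lowest for 5, so neither shifted all 9 genes one way.

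Profiles over the 12 libraries, each centred on its own mean log2 value, were compared by their root mean square difference, a description in which all genes share the same libraries and treatment. Celf5 and Slc2a9 were the closest pair of the 9 (0.29 log2 units), followed by Slc2a9 and Pqlc3 (0.33) and by Celf5 and Pqlc3 (0.40). Cpz and Svop came next (0.52), and Svop and Pqlc3 were the farthest apart (1.33). The search among other genes tested left out Gm, Rik and clone names, pseudogene symbols and mitochondrial genes. Among the genes searched, the closest to Slc2a9, to Pqlc3 and to Celf5 was Trp53inp1, at 0.17, 0.23 and 0.26. Trp53inp1 encodes a protein induced by p53. Trp53inp1 had mean values of 6510 with the combination, 6480 with alisertib, 1690 with navitoclax and 1370 with vehicle. The next genes for Slc2a9 were Fam212b (0.24) and Ptp4a3 (0.27), and the closest remaining gene for Celf5 outside the 9 was Aqp8 (0.32), a water channel gene of few reads.

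The other genes had looser neighbours in pattern. Outside the 9 genes, the nearest to Cpz were Bglap2 (0.62), an osteocalcin gene, and Ces2e (0.65), a carboxylesterase gene, and the same 2 were nearest to Svop (0.88 and 0.85) and to Plcd4 (0.90 and 0.90). Ces2e rested on few reads, with means of 30.0 in combination and 27.3 in alisertib tumours against 2.03 in vehicle tumours. Wfdc3 lay nearest to Aqp8 (0.54) and Bglap2 (0.66). Mylk3 lay nearest to Mmel1 (0.55), Igdcc4 (0.58) and Tmem40 (0.58), and Timp4 to Kcnt1 (0.79), Hepacam (0.86) and Prom2 (0.88). With a pseudocount of 8 in place of 2, 14 of these 27 nearest genes were the same.

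The navitoclax arm asks what the 9 genes did when only the BCL-2 proteins were inhibited. None of the 9 passed the test against vehicle (limma with Benjamini-Hochberg adjustment over 16993 genes, adjusted p from 0.704), in a comparison in which 11 genes, or 0.0647%, passed and 1083 had an unadjusted p below 0.05. The vehicle libraries were also used in choosing the genes. The median log2 difference of the 9 was -0.02, with 4 positive, beside 0.0115 over all genes. Of the 9, 3 were lower in navitoclax than in vehicle tumours without overlap, and 0 higher, where 8.64% of all genes were lower and 6.5% higher without overlap.

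Those 3 genes were Cpz, Svop and Timp4, of which Cpz and Timp4 were the 2 of the 9 with an unadjusted p below 0.05. Cpz had values of 21.5, 28.5 and 22.2 with navitoclax, against 29.0, 39.2 and 61.8 with vehicle, a log2 difference of -0.74 ± 0.31 (limma, adjusted p = 0.704). The highest navitoclax library lay just under the lowest vehicle library. Svop had values of 29.8, 41.9 and 35.7 with navitoclax, against 50.9, 100.5 and 48.5 with vehicle, a log2 difference of -0.79 ± 0.37 (limma, adjusted p = 0.704). Timp4 had values of 8.27, 24.5 and 10.3 with navitoclax, against 37.0, 51.5 and 45.9 with vehicle, a log2 difference of -1.63 ± 0.73 (limma, adjusted p = 0.704). All 3 navitoclax libraries were low for Timp4, on 10, 31 and 13 reads.

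Slc2a9, Celf5 and Pqlc3 overlapped between navitoclax and vehicle tumours. Slc2a9 had values of 115, 135 and 122 with navitoclax, against 117, 80.9 and 133 with vehicle, a log2 difference of 0.19 with a 95% interval of -0.24 to 0.63 (limma, adjusted p = 0.73). This is the narrowest interval of the 9. Celf5 had values of 92.6, 100.4 and 82.5 with navitoclax, all inside the vehicle range, a log2 difference of 0.29 ± 0.29 (limma, adjusted p = 0.728). Pqlc3 had values of 139.8, 150.2 and 202 with navitoclax, a log2 difference of 0.69 ± 0.33 (limma, adjusted p = 0.704), and only vehicle 3 reached into that range.

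The remaining genes were uneven under navitoclax. Plcd4 had values of 60.4, 11.1 and 2.38 with navitoclax, against 13.985, 9.80 and 17.7 with vehicle, a log2 difference of -0.02 ± 0.74 (limma, adjusted p = 0.995). Navitoclax 1 was the highest of these 6 libraries and navitoclax 3, with 3 reads, the lowest; the log2 difference was -1.03 without the first and 0.88 without the second. Skeletal muscle markers (10 listed, 9 reaching the filter) summed to 109900 in navitoclax 1, against 89.9 to 1234 in the other 11 libraries, and the part of muscle RNA in the Plcd4 value of that library was not tested. Mylk3 had values of 61.2, 20.6 and 84.1 with navitoclax, against 63.9, 83.3 and 34.4 with vehicle, a log2 difference of -0.25 ± 0.52 (limma, adjusted p = 0.85), and navitoclax 1 did not stand out. Wfdc3 had values of 15.7, 11.9 and 19.8 with navitoclax, against 12.99, 2.45 and 52.96 with vehicle, a log2 difference of 0.18 ± 0.74 (limma, adjusted p = 0.927). In simulated reads of 16717 genes made for this comparison, the fit recovered 24% of genes changed 2-fold and 92% of those changed 4-fold. Smaller changes were thus not reliably detectable with 3 libraries a group. The changed genes were drawn from genes with higher mean values than Plcd4, Wfdc3, Timp4 and Cpz had in navitoclax or vehicle tumours. Svop, too, had a lower mean than those genes in navitoclax tumours. The shares recovered therefore do not carry over to these genes.

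Adding navitoclax to alisertib asks whether the second drug moves the 9 genes further. None passed in the combination against alisertib (limma, adjusted p from 0.681), where 0 of 16993 genes, 0%, passed, 0 also with edgeR, DESeq2 and limma-voom, and 596 had an unadjusted p below 0.05. All 9 overlapped between these groups, where 5.08% of all genes were higher and 5.2% lower without overlap. Their median log2 difference was 0.15, with 7 positive, beside -0.0125 over all genes. Genes high in a single alisertib arm could not be chosen, so the choice itself favours small differences here. Svop had the largest difference, 0.75 with a 95% interval of -0.06 to 1.56 (limma, adjusted p = 0.681), and combination 3 decided its size: without that library the difference was 0.33. For Slc2a9 the interval was -0.39 to 0.48 around 0.05, for Celf5 -0.54 to 0.75 around 0.10, and for Cpz -0.52 to 0.82 around 0.15 (limma, 95% intervals). Pqlc3 stood at -0.07 (-0.81 to 0.66) and Mylk3 at 0.42 (-0.72 to 1.56). The intervals of Plcd4 (-1.33 to 1.94), Timp4 (-1.67 to 1.54) and Wfdc3 (-1.32 to 1.94) reached past a 2-fold change in both directions. In simulated reads of 16742 genes for this comparison, 19% of genes changed 2-fold and 87% of those changed 4-fold were recovered.

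**Figure D2:**
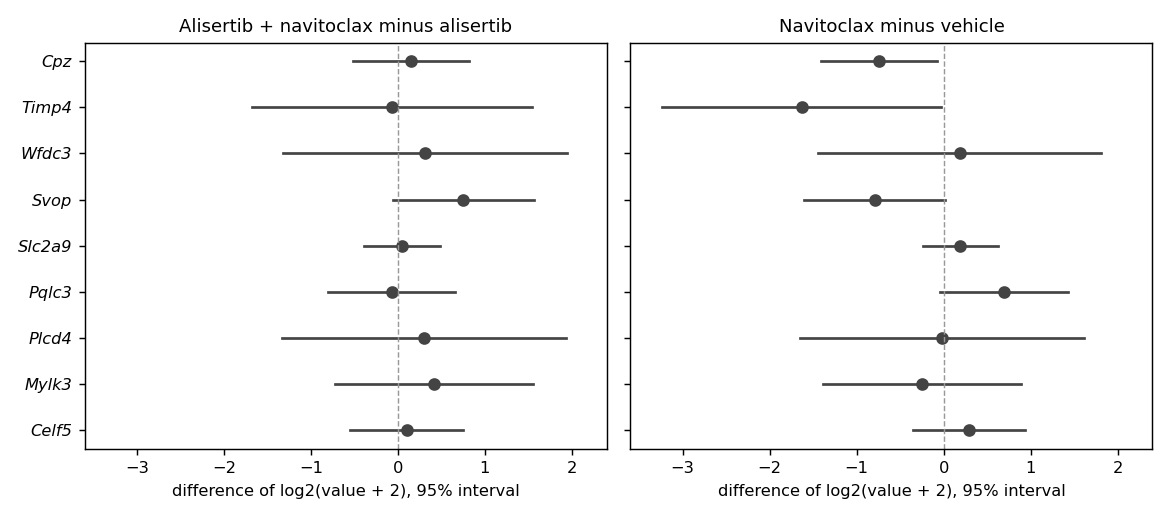
Difference of log2(value + 2) with its 95% interval from the limma fit for each of the 9 genes (rows), in the combination minus alisertib (left) and in navitoclax minus vehicle (right). The intervals of Slc2a9, Celf5 and Cpz are the narrowest and those of Timp4, Plcd4 and Wfdc3 the widest; no gene passed after adjustment in either comparison, and Cpz, Svop and Timp4 lie lowest on the right.

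Against navitoclax alone, all 9 genes were higher in the combination without overlap, where 14.2% of all genes were; the combination libraries had been used to choose the genes, so no test is given. The median log2 difference was 3.06. It was largest for Svop, at 4.72, with 824, 656 and 1755 in the combination against 29.8, 41.9 and 35.7 in navitoclax tumours, and smallest for Pqlc3, at 1.67.

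Few relatives of the 9 genes were called, as few of all genes were, so nothing is read from these counts. Of 97 genes listed by family or shared pathway, 59 reached the filter on low values. With alisertib 0 of these were called higher than vehicle and 1 lower (limma with Benjamini-Hochberg adjustment), beside 0.553% and 0.318% of all genes, and their median log2 difference was 0.15 against 0.00998 over all genes. With the combination 1 was called higher and 1 lower, beside 1.38% and 1.15%, with a median of 0.19 against -0.0129. In navitoclax against vehicle and in the combination against alisertib 0 of the 59 passed, beside 0.0647% and 0% of all genes. With edgeR 1 relative was called in each of the alisertib arms. The counts were larger with DESeq2 and largest with limma-voom and quality weights, at 10 with alisertib and 11 with the combination. Over all 16993 genes limma-voom called 1241 with alisertib and 2107 with the combination.

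The called relatives were both small secreted WAP proteins like Wfdc3. Slpi, the secretory leukocyte protease inhibitor, fell to 19.5 ± 4.96 in combination and 20.4 ± 5.87 in alisertib tumours, against 76.9 ± 9.64 in vehicle tumours (SD, n = 3 each). Its log2 difference was -1.90 ± 0.30 (limma, adjusted p = 0.00864) with the combination and -1.84 ± 0.30 (limma, adjusted p = 0.017) with alisertib. With navitoclax alone Slpi was also lower than with vehicle, at 34.6 ± 6.15, a log2 difference of -1.11 ± 0.30 that did not pass (limma, adjusted p = 0.56). The alisertib call was lost without alisertib 1 or 2 or vehicle 1 or 3 (adjusted p from 0.0614 to 0.104), and that of the combination without vehicle 1 (limma, adjusted p = 0.0546). Fitting only the groups compared ended both calls (limma, adjusted p = 0.082 with the combination and 0.064 with alisertib). Wfdc17, a WAP gene known from activated macrophages, rose to 152 ± 72.8 in combination tumours, against 17.5 ± 19.3 in vehicle tumours, by 3.30 ± 0.68 (limma, adjusted p = 0.0323). Leaving out alisertib 3, combination 2 or 3, or vehicle 1 or 2 ended that call (limma, adjusted p from 0.0518 to 0.138), and it was not called with edgeR, with limma-voom or in a fit of only the groups compared. With alisertib alone Wfdc17 stood at 145 ± 84.4, a log2 difference of 3.21 ± 0.68 that did not pass (limma, adjusted p = 0.061). The macrophage sums given above were higher in the same tumours, and their part in Wfdc17 was not tested. Of the 19 WAP genes listed, Wfdc1 was the only other one tested and was not called, and 16 did not reach the filter.

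The families of the other genes had no called relative. Among the inhibitors of metalloproteinases, Timp2 had the highest level, 8157 ± 431 with the combination and 7865 ± 355 with alisertib, against 5789 ± 719 with vehicle. Its log2 differences of 0.50 ± 0.12 with the combination (limma, adjusted p = 0.055) and 0.45 ± 0.12 with alisertib (limma, adjusted p = 0.138) did not pass but did with DESeq2 and with limma-voom. The 14 metalloproteinases tested, MMPs with Adam10 and Adam17, had a median log2 difference of 0.41 with the combination and 0.84 with alisertib. Of these, 11 of 14 were positive in each arm, and none passed. With navitoclax alone the median was 0.37, also with 11 of 14 positive and none passing, so the tilt was not particular to the alisertib arms. Mmp14, the most abundant, was at 6940 ± 450 in combination and 7103 ± 631 in alisertib tumours, against 6737 ± 801 in vehicle tumours. Among 7 sugar transporters the median was -0.54 with the combination and -0.26 with alisertib. Slc2a1, the main glucose carrier, had 3585 ± 1202 in combination and 5595 ± 1885 in alisertib tumours, against 7867 ± 1151 in vehicle tumours. Its log2 difference of -1.17 ± 0.29 with the combination did not pass (limma, adjusted p = 0.06). With navitoclax alone Slc2a1 had 5355 ± 1072, so a lower mean was not particular to the alisertib arms. That log2 difference was -0.57 ± 0.29 (limma, adjusted p = 0.704), beside -0.54 ± 0.29 with alisertib. Of 9 other genes of urate handling 3 were tested. Abcc4, an exporter, was at 802 ± 199 in combination and 869 ± 8.92 in alisertib tumours, against 901 ± 122 in vehicle tumours. Abcg2 had 185 ± 84.8 in combination, 213 ± 50.6 in alisertib and 119 ± 25.6 in navitoclax tumours, against 69.7 ± 26.6 in vehicle tumours. Its log2 differences of 1.34 ± 0.41 with the combination and 1.63 ± 0.41 with alisertib did not pass (limma, adjusted p = 0.12 each). Xdh, at 0.69 ± 0.43 with the combination and 0.48 ± 0.43 with alisertib, did not pass either.

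In the remaining lists no relative was called either. Cpe, carboxypeptidase E, the most abundant relative of Cpz, had 19880 ± 6886 in combination and 17130 ± 1525 in alisertib tumours, against 13840 ± 3440 in vehicle tumours (limma, adjusted p = 0.32 with the combination and 0.574 with alisertib). Sv2a, a relative of Svop, had 862 ± 318 in combination and 543 ± 38.2 in alisertib tumours, against 544 ± 189 in vehicle tumours. Sv2b, the other relative of Svop tested, had 36.0 ± 14.7 in combination and 26.7 ± 3.99 in alisertib tumours, against 11.5 ± 3.40 in vehicle tumours. Its log2 difference was 1.44 ± 0.36 with the combination (limma, adjusted p = 0.0621) and 1.11 ± 0.36 with alisertib (limma, adjusted p = 0.224). Celf2 stood at 4483 ± 1052 in combination and 5123 ± 505 in alisertib tumours, against 4328 ± 724 in vehicle tumours. Mpdu1, a relative of Pqlc3, had 1249 ± 427 in combination and 938 ± 67.8 in alisertib tumours, against 935 ± 216 in vehicle tumours. None of these differences passed the test. Of 11 phospholipases C, Plcg1 was the most abundant, at 4007 ± 352 in combination and 3617 ± 260 in alisertib tumours, against 3671 ± 459 in vehicle tumours. Of 4 myosin light chain kinases and light chains, Myl12a had 2563 ± 941 in combination and 3850 ± 333.2 in alisertib tumours, against 3548 ± 880 in vehicle tumours. The list median was -0.00376 with alisertib for the phospholipases and 0.09 for the CELF proteins, where Plcd4 and Celf5 had 3.59 and 2.65.

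**Figure D3:**
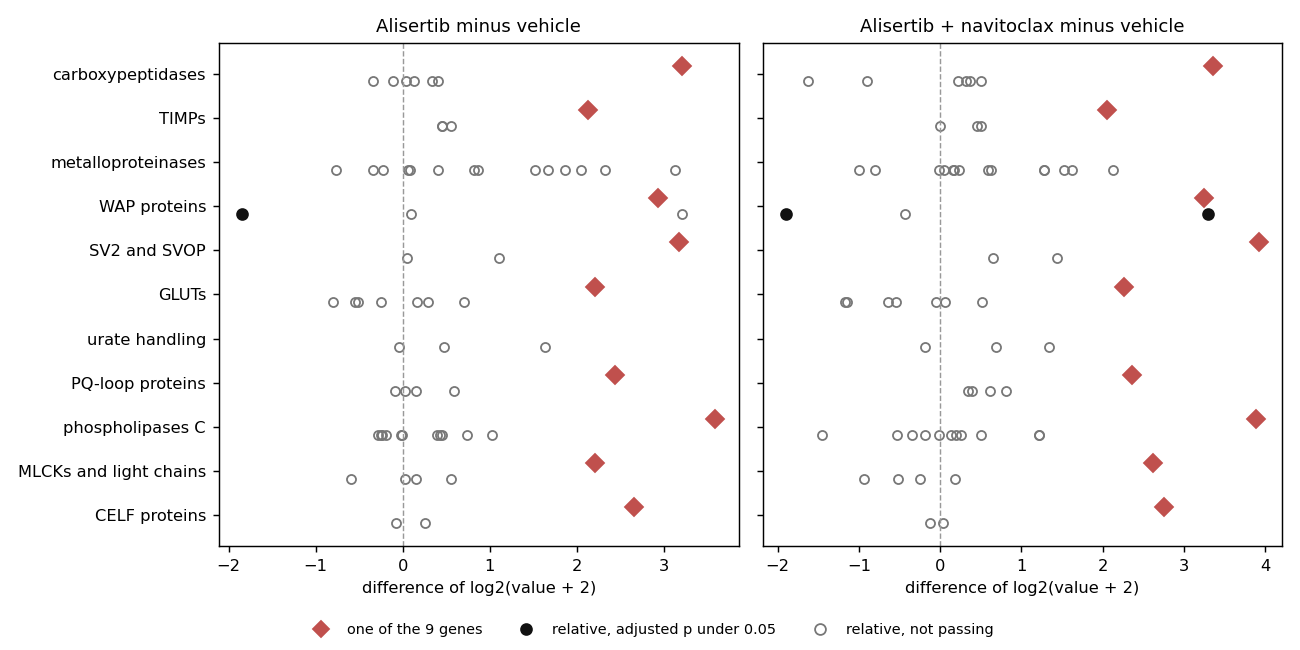
Difference of log2(value + 2) of the 59 tested relatives (circles, filled where adjusted p is under 0.05) and of the 9 genes (diamonds) by family (rows), for alisertib minus vehicle (left) and the combination minus vehicle (right). The 9 genes were chosen for their place at the right of each panel; the relatives scatter widely around medians of 0.15 (left) and 0.19 (right), some open circles lie as far right as the diamonds, with Slpi filled at -1.84 and -1.90 and Wfdc17 filled at 3.30 in the right panel.

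Genes next to the 9 on their chromosomes were examined as well, taking the nearest tested gene on each side. Some of these lie far away, up to about 396500 bases for Lrpap1 beside Cpz. Of these 18 flanking genes, 0 passed in any of the 4 comparisons with limma. Over all genes tested, 0.553% were called higher and 0.318% lower with alisertib, and 1.38% and 1.15% with the combination. In navitoclax against vehicle 0.0647% passed, and in the combination against alisertib 0%. With shares this low, nothing is read from the count of flanking genes. Their log2 differences lay between -0.53 and 0.36 with the combination and between -0.58 and 0.47 with alisertib. The lowest was Pdia6, an endoplasmic reticulum foldase gene about 266100 bases from Pqlc3, at -0.53 ± 0.13 with the combination (limma, adjusted p = 0.0617) and -0.58 ± 0.13 with alisertib (limma, adjusted p = 0.0829), which passed with DESeq2 and limma-voom. Rock2, 825 bases from Pqlc3 on its other side, was at -0.39 ± 0.22 with the combination (limma, adjusted p = 0.414) and -0.45 ± 0.22 with alisertib (limma, adjusted p = 0.415).

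The closest neighbours were Wfdc3 and Dnttip1, which start head to head on chromosome 2. Their GENCODE starts, 164745931 for Wfdc3 on the minus strand and 164745983 for Dnttip1 on the plus strand, leave 51 bases between them, in capitals in the RefSeq window of Dnttip1, which is printed because both genes start in it.
Dnttip1, chr2:164745765-164746064, plus strand: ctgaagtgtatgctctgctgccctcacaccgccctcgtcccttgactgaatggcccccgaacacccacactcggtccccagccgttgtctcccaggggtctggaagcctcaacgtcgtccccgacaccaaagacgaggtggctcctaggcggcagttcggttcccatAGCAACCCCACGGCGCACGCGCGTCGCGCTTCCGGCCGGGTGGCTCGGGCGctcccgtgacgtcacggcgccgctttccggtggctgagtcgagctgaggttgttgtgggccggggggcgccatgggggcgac
This window holds 68.3% G and C and 32 CpG pairs. Dnttip1, a subunit of a histone deacetylase complex, had 950.3, 938 and 861 with the combination and 937, 1042 and 954 with alisertib, against 1059, 946 and 1058 with vehicle. These libraries overlapped between the groups, whereas those of Wfdc3 did not. The log2 difference of Dnttip1 was -0.15 ± 0.12 with the combination (limma, adjusted p = 0.589) and -0.06 ± 0.12 with alisertib (limma, adjusted p = 0.84). RefSeq places the start of Wfdc3 2664 bases from this point, and the data do not tell which start was used.

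Some genes overlap on the opposite strand, and since the strand setting of the counting is not given in the sources used here, their reads cannot be told apart for certain. Timp4 overlaps Syn2, which encodes synapsin 2. Syn2 had 87.8, 32.4 and 32.6 with the combination and 75.7, 77.9 and 28.1 with alisertib, against 15.98, 7.35 and 19.4 with vehicle. It was higher in every library of both arms than in any vehicle library, and within the alisertib group it was lowest in alisertib 3, as Timp4 was. Combination 2 and combination 3 were level for Syn2 and far apart for Timp4. The log2 difference of Syn2 was 1.63 ± 0.56 with the combination (limma, adjusted p = 0.16) and 1.90 ± 0.56 with alisertib (limma, adjusted p = 0.182). Usp30 beside Svop and Usp37 and Zfp142 beside Plcd4 did not pass, at log2 differences between -0.44 and 0.20 in both arms. Gm16105 in Celf5, Gm17482 in Timp4 and AA672651 in Mylk3 were at 0 in all 12 libraries.

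**Figure D4:**
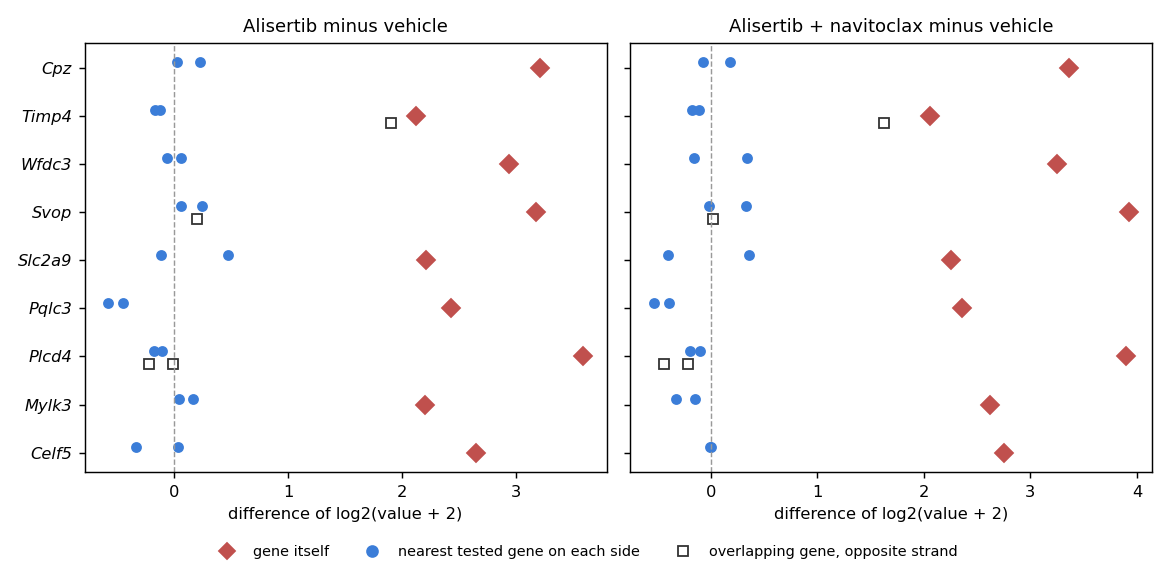
Difference of log2(value + 2) of each of the 9 genes (diamonds), of the nearest tested gene on each side (circles) and of tested genes that overlap it on the opposite strand (squares), for alisertib minus vehicle (left) and the combination minus vehicle (right). The flanking genes lie between -0.58 and 0.47, and the 1 square far from 0 in each panel is Syn2 beside Timp4, at 1.90 and 1.63.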

How the data were processed

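RNA was extracted from tumours with a column kit, depleted of ribosomal RNA and made into directional libraries, per the labels' protocols. Tools listed, per the submitters' processing notes, are DESeq2, featureCounts with Subread 1.5.1, and HISAT2 2.0.6, beside mm10 and GRCm38.p4 as builds; the annotation release and the strand setting of the counting are not given in the sources used here. The deposited table holds a normalized count (a signal value per gene, read counts that the authors divided by a size factor per library) for 50600 genes in 12 libraries. Within a tolerance of 0.001 all values were whole multiples of the value of 1 read in their library, so whole reads could be recovered and were used for depth and for the count tests tried as alternatives. Of the columns, 0 were left unmapped. The treatments in the row under the column names equalled the labels for 12 of 12 libraries. Of the navitoclax columns, 1 was matched by its library code because the rest of its name differed from the title.

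From these values, genes were tested where 3 or more libraries reached 10 (16993 of 29711 with a read), and log2(value + 2) was fitted with limma 3.58.1 (R 4.3.3, trend and robust moderation, 1 mean per group over all 12 libraries), with Benjamini-Hochberg adjustment over all genes tested and a threshold of 0.05. Alternatives were edgeR 4.0.16 and DESeq2 1.42.0 on recovered reads, limma-voom with quality weights, other pseudocounts, no filter, other size factors, only the groups compared, and leaving out libraries. The fit was tested on simulated data. Comparisons with vehicle share the vehicle libraries. Members, gene lists and motifs were chosen with earlier results of these data known. The genes named are the 9 members, the 3 genes nearest in profile to each, and the most abundant or called relatives. All tested relatives of the urate and SV2 lists are named too. Of neighbours, overlapping genes and the nearest tested ones that stand out by value or distance are named. Gm, Rik and clone names, pseudogene symbols and mitochondrial genes were left out of the search for nearest profiles. Positions are from GENCODE M21 (50376 of 50600 gene IDs matched) and promoters from RefSeq (GRCm38.p6). Of the neuron and glia markers listed, 2 are not reported here, so sums of that list are over the other 6 and are incomplete.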

Additional observations from a re-analysis of the deposited data

How the results depend on the processing

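Over the alternatives tried, the 9 genes kept the sign of their difference from vehicle in both alisertib arms and from navitoclax in the combination (189 of 189 values each). The genes were chosen for a large rise in these arms, so nothing is read from that count. None passed in navitoclax against vehicle or in the combination against alisertib (limma, edgeR or DESeq2 with Benjamini-Hochberg adjustment, smallest adjusted p 0.401 and 0.213), where 168 and 175 of 189 values kept their sign. No paired analysis was possible because the labels number no replicates, and the numbers used here only name the libraries. The low groups of Plcd4, Timp4 and Wfdc3 rest on few reads. Timp4 nevertheless varied more in its high groups, with an SD of log2(value + 2) of 1.10 with alisertib and 1.535 with the combination. That SD was 0.726 with navitoclax and 0.232 with vehicle. The part of depth in these spreads was not tested.

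In navitoclax against vehicle, signs turned for Plcd4 (log2 0.78 with edgeR, 0.80 with DESeq2, 0.14 with pseudocount 8), for Wfdc3, navitoclax against vehicle (-0.622 with edgeR, -0.60 with DESeq2, -0.27 with voom, -0.0094 with pseudocount 8, -0.71 with vehicle 2 and combination 3 both left out), for Mylk3, navitoclax against vehicle (0.047 with voom, 0.0203 with both out), and for Celf5 and Slc2a9 (-0.032 and -0.011 with both out). In the combination against alisertib they turned for Timp4 (0.080 with edgeR, 0.092 with DESeq2), for Cpz, Celf5 and Pqlc3 with voom (-0.11, -0.011 and 0.089), and for Cpz and Pqlc3 with both out (-0.028 and 0.13). Among relatives they turned for Plcg1 (0.10 with voom, 0.084 with both out), Mmp14 (-0.017 with alisertib and -0.048 with the combination, both out) and Myl12a (-0.032 with voom, -0.075 with both out). The cause was not tested.

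Leaving out 1 library at a time gave, in navitoclax against vehicle, -0.032 to 0.67 for Celf5, -0.011 to 0.34 for Slc2a9, -1.03 to 0.88 for Plcd4, -0.64 to 0.32 for Mylk3 and -0.71 to 1.10 for Wfdc3. In the combination against alisertib it gave -0.028 to 0.35 for Cpz, -0.20 to 0.13 for Pqlc3, -0.64 to 0.81 for Timp4 and -0.11 to 0.54 for Wfdc3. Relatives with alisertib spanned -0.12 to 0.32 for Sv2a, -0.077 to 0.21 for Mpdu1, -0.14 to 0.057 for Abcc4, -0.078 to 0.084 for Plcg1, -0.017 to 0.15 for Mmp14 and -0.075 to 0.29 for Myl12a. With the combination they spanned -0.11 to 0.25 for Celf2, -0.35 to 0.018 for Abcc4 and -0.048 to 0.12 for Mmp14.

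Genes called over the whole table numbered 148 with alisertib, 680 with DESeq2, 1241 with voom, 91 with only the groups compared and 49 to 199 without 1 library. With the combination they numbered 431, and 1245, 2107, 58 and 105 to 387 in the same settings. With navitoclax they numbered 11, and 87 with DESeq2, 38 with voom, 3 with pseudocount 0.5, 21 with pseudocount 8, 0 with only the groups compared and 2 to 17 without 1 library. Relatives called with alisertib numbered 1, and 6 with DESeq2, 10 with voom, 2 with both out and 0 to 2 without 1 library. With the combination they numbered 2, and 1 with edgeR, 10 with DESeq2, 11 with voom, 1 with only the groups compared and 0 to 3 without 1 library. With navitoclax they numbered 0, and 1 with DESeq2. Of 148 genes called with alisertib 63.5% were higher, against 51.6% with DESeq2 and 50.5% with voom. With pseudocount 8, 14 of the 27 nearest genes in profile were shared.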
